A study of Mus musculus with 18 samples.

Results

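The 10 genes examined here encode the PGC1 coactivators (Ppargc1a, Ppargc1b and Pprc1), a nuclear receptor they coactivate (Esrra), the nuclear respiratory factors (Nrf1 and Gabpa), the mitochondrial transcription factors (Tfam, Tfb1m and Tfb2m) and the deacetylase Sirt1. Members were taken as all probes whose gene name in the array files equals one of these symbols, which gave 25 of the 56605 probes on the array and 10 of its 37074 gene names. Of the 25 probes, 22 passed the filter on dim signal, and each of the 10 genes kept at least 1 probe. The 3 groups of mice, in a C57BL6/J background, were measured with 6 samples each and 1 Agilent one-colour array per sample. The iPGC1afl/fl CHOW and iPGC1afl/fl HFD groups carry floxed Pgc1α alleles without Cre, and the iPGC1a-/- HFD group adds a Cre transgene driven by the Villin promoter, which acts in intestinal epithelium and not in immune or stromal cells. Diets began at 8 weeks of age and lasted 8 weeks. The HFD, called a Western diet by the study, held 42% of its calories as fat, milk fat included, and 0.2% cholesterol, and all mice were killed fasted at zeitgeber hour 3. No iPGC1a-/- group on chow was used here, so neither a diet effect in iPGC1a-/- mice nor a genotype effect on chow is given.

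PGC1 coactivators do not bind DNA themselves. They dock on transcription factors such as ERRα, NRF1 and GABP, which switch on nuclear genes for respiration and for the machinery that copies and transcribes mitochondrial DNA, with TFAM, TFB1M and TFB2M among its parts. SIRT1 removes acetyl groups from PGC1α and is known as one of its activators. In the gut, PGC1α is known to be more abundant in differentiated enterocytes of the villus than in dividing crypt cells.

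The cells were released from the ileum by chelation, so they are mostly epithelial but not sorted. Enterocyte markers summed to a signal between 1010762 and 1390203 over the 18 arrays, and markers of T cells and intraepithelial lymphocytes to between 7346 and 49647. In iPGC1afl/fl mice on HFD against chow, 8 of 9 T cell markers, 7 of 7 B and plasma cell markers and 7 of 7 goblet cell markers were lower. So were 4 of 10 crypt, 3 of 6 macrophage and dendritic cell, 2 of 6 Paneth and 1 of 3 tuft markers, against 14.2% of all genes. None of these lists had a higher gene. Villus tip markers had 3 lower and 1 higher of 6, enterocyte markers 1 lower and 2 higher of 13, and enteroendocrine markers 1 lower and 1 higher of 8. No stromal or red blood cell marker was called. Between the genotypes on HFD, no marker of any of the 12 cell type lists was called by limma, where 0.227% of all genes were. An unadjusted limma p of 0.05 was reached by 6 of 85 markers, against 9.3% of all genes. With so few genes called, the lack of a call does not show equal cell make-up. In these bulk samples, fewer cells of a type and less RNA per cell cannot be told apart. The share of probes well above background ran from 56.3% to 62.3% per array. Each of 3 slides held 2 arrays of every group.

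Ppargc1a is the targeted gene. It is read by 2 probes on chromosome 5 of mm9, on the minus strand, at chr5:51848928-51848987 (probe 1, the brighter) and chr5:51849419-51849478 (probe 2). They lie 491 bases apart both in the genome and in the transcript the array design names, which places them on 1 unbroken stretch. The design gives no exon for a probe, and no annotation of mm9 was used here. Probe 2 and the brightest Pprc1 probe, at chr19:46147083-46147142 on the plus strand, are shown because their sequences place them: each reads through in frame without a stop until its last bases, a stop codon (in capitals), and is thus the end of a coding sequence. The pair are 65% identical over 60 bases (39 identical positions).
Ppargc1a probe 2: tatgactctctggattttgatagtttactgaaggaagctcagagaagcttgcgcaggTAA
Pprc1 probe 1: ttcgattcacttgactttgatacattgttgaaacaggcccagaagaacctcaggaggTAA

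The floxed segment of Ppargc1a holds early exons per the study's results. Both Ppargc1a probes lie at or beyond the stop codon, so neither reads the deleted part and neither can check the deletion. The study checked the deletion itself by RT-qPCR of Pgc1α in the intestinal tracts. On the log2 scale of normalized signal, used for all levels below, probe 1 read 10.104 to 11.25 (median 11.17) in iPGC1afl/fl mice on chow, 11.26 to 11.45 (median 11.40) in iPGC1afl/fl mice on HFD and 11.36 to 12.01 (median 11.63) in iPGC1a-/- mice on HFD. At probe 1 the chow and HFD arrays of iPGC1afl/fl mice barely missed overlapping (11.2515 at most on chow, 11.2571 at least on HFD), while the genotypes on HFD overlapped. Of all genes, 10.4% did not overlap between diets. Probe 2 gave the same order, with 7.75 to 9.04 (median 8.85), 8.97 to 9.39 (median 9.11) and 9.32 to 9.71 (median 9.51), and it overlapped between diets. The 3′ signal of the targeted gene was thus not lower in any array labelled iPGC1a-/- than in the lowest iPGC1afl/fl array on the same diet.

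**Figure D1:**
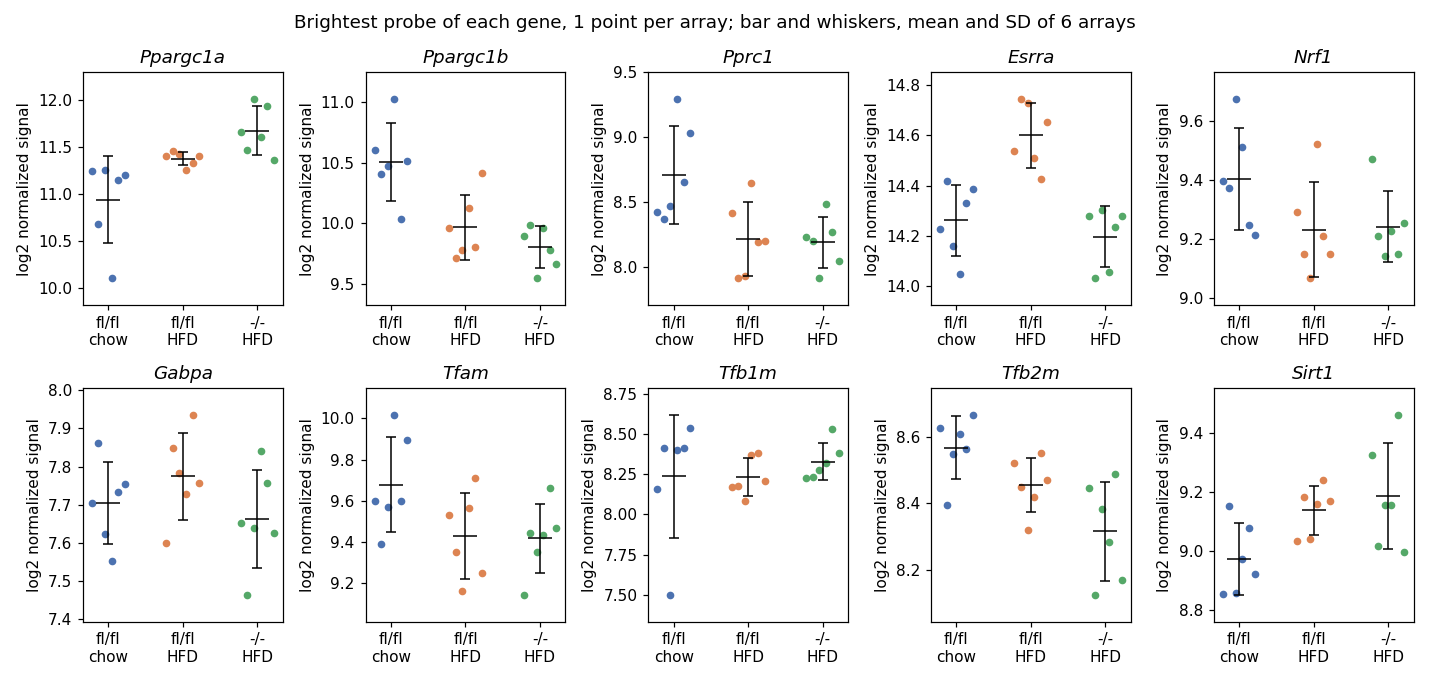
Log2 normalized signal (vertical axis) of the brightest probe of each of the 10 genes, with 1 point per array for iPGC1afl/fl mice on chow, iPGC1afl/fl mice on HFD and iPGC1a-/- mice on HFD (6 arrays each) and the mean with SD as a bar with whiskers. Esrra on HFD in iPGC1afl/fl mice (14.43 to 14.75) lies above all arrays of both other groups, and 1 chow array has the lowest Ppargc1a (10.104) together with the highest Ppargc1b (11.03), Pprc1 (9.30) and Tfam (10.02).

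To see what the diet did to this set, HFD was compared with chow in iPGC1afl/fl mice. At the brightest probe of each gene, 3 of 10 members passed an adjusted p of 0.05: Esrra rose, and Ppargc1b and Pprc1 fell. Over all genes tested this way, 24.6% of 21542 passed, 10.4% higher and 14.2% lower, so that the members' count is near the background. Of the probes called, 43.0% were higher, against 54.9% with Agilent's processed signal and 59.97% with the median signal when each was scaled to the 75th percentile. The members' median log2 fold change was -0.06 against 0.00 over all genes, and no member passed a fold change above 1.5, which 8.43% of genes passed.

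Among the coactivators, Ppargc1a was higher on HFD by 0.44 (SE 0.16, 95% interval 0.10 to 0.78, 1.36-fold) at probe 1. Its limma adjusted p was 0.0556, just outside the threshold. The difference at probe 1 was uneven between slides, with 0.14 on slide 1, 0.24 on slide 2 and 0.94 on slide 3. Slide 3 held chow replicates 2 and 4, the lowest chow arrays at this probe. Probe 2 was higher by 0.51 (SE 0.16) and passed with an adjusted p of 0.0273, a call lost without chow replicate 2 (0.46, adjusted p = 0.0556), HFD replicate 2 (0.49, adjusted p = 0.0547) or HFD replicate 3 (0.46, adjusted p = 0.0694). Chow replicate 4 held the lowest Ppargc1a value of all 18 arrays at both probes, and without it the probe 1 difference was 0.27 with an adjusted p of 0.127. Conversely, probe 1 passed without chow replicate 1 (0.50), 3 (0.50) or 6 (0.49). The same array had the highest summed crypt signal (18356, against 8504 to 15182 in the other arrays) and the lowest sum of villus tip markers (65092, against 112057 or more), a sum in which Apoa4 is by far the brightest gene. The part of these markers in the Ppargc1a difference was not tested.

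Ppargc1b, the close paralogue of Ppargc1a, has its brightest probe at chr18:61458252-61458311 and a second at chr18:61451467-61451526, both on the minus strand. Probe 1 read 10.03 to 11.03 (median 10.49) on chow, 9.71 to 10.42 (median 9.88) on HFD and 9.55 to 9.99 (median 9.84) in iPGC1a-/- mice on HFD. Of the 6 HFD arrays of iPGC1afl/fl mice, 4 lay below every chow array and 2 overlapped them. It fell by 0.54 on HFD (SE 0.14, adjusted p = 0.0079), and by 0.44 to 0.64 when any 1 array was left out. Probe 2 differed by -0.35 with an adjusted p of 0.0544.

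Pprc1, the growth-responsive relative of PGC1α, gave opposite answers at different probes. Probe 1, at the coding end shown above, read 8.37 to 9.30 (median 8.56) on chow, 7.91 to 8.65 (median 8.20) on HFD and 7.91 to 8.49 (median 8.21) in iPGC1a-/- mice on HFD, and it fell by 0.49 on HFD (SE 0.16, adjusted p = 0.0273). Probe 2, at chr19:46119470-46119529 and 27.6 kb upstream, read 6.32 to 6.56 (median 6.46) on chow and 6.59 to 7.19 (median 6.95) on HFD, without overlap, and it rose by 0.45 (SE 0.10, adjusted p = 0.00392). The array design assigns probe 2 to another transcript than probe 1, so the symbol alone does not say which product moved. The mean of the gene's probes differed by -0.08 (adjusted p = 0.454). The call at probe 1 was lost without chow replicate 4 (-0.37, adjusted p = 0.0756), chow replicate 6 (-0.43, adjusted p = 0.0641), HFD replicate 2 (-0.43, adjusted p = 0.0726) or HFD replicate 3 (-0.43, adjusted p = 0.0725). Probe 3, at chr19:46139744-46139803, was well above background on 5 of 6 chow arrays and on 1 of 6 HFD and 0 of 6 iPGC1a-/- arrays, and so passed the filter through chow alone. It read 4.70 to 5.29 in iPGC1afl/fl mice. Probe 4, at chr19:46131509-46131568, was not well above background on any array.

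Esrra encodes ERRα, the orphan receptor through which PGC1α reaches many respiratory genes. Its brightest probe, at chr19:6985503-6985562 on the minus strand, read 14.05 to 14.42 (median 14.28) on chow and 14.43 to 14.75 (median 14.60) on HFD in iPGC1afl/fl mice. The groups did not overlap, which was the case for 10.4% of genes. Esrra rose by 0.34 on HFD (SE 0.08, 95% interval 0.17 to 0.51, 1.27-fold, adjusted p = 0.00564), and it kept its call when any 1 array was left out. Within slides the difference was 0.39, 0.28 and 0.35. Probe 2, at chr19:6991170-6991229, differed by 0.17 with overlap and an adjusted p of 0.218.

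The nuclear respiratory factors did not pass. Nrf1, whose protein binds the promoters of many respiratory genes, differed by -0.17 at its brightest probe (chr6:30103035-30103094, 95% interval -0.36 to 0.02, adjusted p = 0.189), by -0.07 at chr6:30067078-30067137 and by -0.24 at chr6:30094644-30094703 (adjusted p = 0.0663). The Nrf1 probe 4, at chr6:30079758-30079817, was not well above background on any array. Gabpa, the DNA-binding subunit of GABP, differed by 0.07 (95% interval -0.09 to 0.23, adjusted p = 0.554) at chr16:84863822-84863881, and by 0.14 at each of its other probes, at chr16:84857416-84857680 and chr16:84860691-84860750. The first of these spans 265 bases of genome for a 60-base probe, so that it crosses a splice junction.

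None of the mitochondrial transcription factors passed in this comparison either. Tfam, which packages mitochondrial DNA and starts its transcription, read 9.39 to 10.02 (median 9.60) on chow, 9.16 to 9.71 (median 9.44) on HFD and 9.14 to 9.66 (median 9.44) in iPGC1a-/- mice on HFD at chr10:70691103-70691162. Its HFD arrays overlapped the chow arrays, and the difference was -0.25 (95% interval -0.49 to -0.01, adjusted p = 0.12), with -0.24 at its other probe, chr10:70691260-70691319. Tfb2m, a subunit of the mitochondrial transcription initiation complex, differed by -0.11 at chr1:181458247-181458306 and by -0.17 at chr1:181459354-181459413. Tfb1m, a methylase of mitochondrial ribosomal RNA, differed by 0.00 between diets at chr17:3519390-3519449 (95% interval -0.28 to 0.27). That value rests on chow replicate 3, which read 7.501 against 8.16 to 8.53 on the other chow arrays, and without it the difference was -0.15 (adjusted p = 0.205). The other Tfb1m probe, chr17:3551290-3551349, was not well above background on any array.

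Sirt1 was read at chr10:62781827-62781886 and chr10:62784955-62785014. Its brightest probe read 8.86 to 9.15 (median 8.95) on chow and 9.04 to 9.24 (median 9.17) on HFD in iPGC1afl/fl mice, a difference of 0.17 (95% interval -0.01 to 0.34, adjusted p = 0.166). Probe 2 also differed by 0.17. At both probes all 6 HFD arrays lay above the chow mean.

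**Figure D2:**
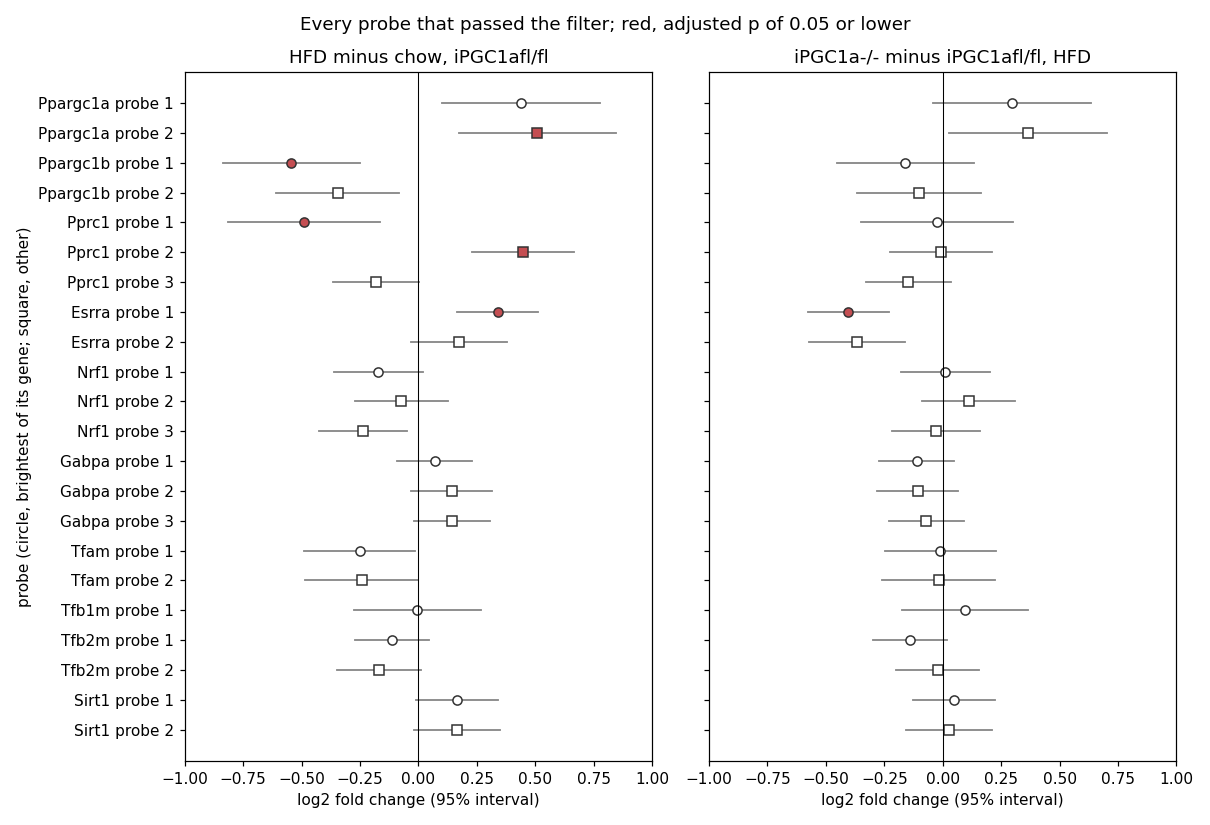
Log2 fold change with its 95% interval (horizontal axis) of each of the 22 member probes that passed the filter, for HFD minus chow in iPGC1afl/fl mice (left) and iPGC1a-/- minus iPGC1afl/fl on HFD (right), with circles for the brightest probe of a gene, squares for its other probes and red for probes that passed the threshold. Pprc1 probes 1 and 2 pass on opposite sides (-0.49 and 0.45) on the left, and Esrra probe 1 (-0.40) is the one red symbol on the right.

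The second comparison asked what differed between iPGC1a-/- and iPGC1afl/fl mice on HFD. At the brightest probe, 1 of 10 members passed, Esrra, which was lower in iPGC1a-/- mice. Over all genes 0.227% passed, or 49 of 21542, and the members' median log2 fold change was -0.02 against 0.01 over all genes. Esrra probe 1 read 14.03 to 14.30 (median 14.26) in iPGC1a-/- mice, below every iPGC1afl/fl array on HFD, and such separation was seen for 0.966% of genes. It fell by 0.40 (SE 0.08, 95% interval -0.58 to -0.23, a 1.32-fold lower level), with a limma adjusted p of 0.0488. Probe 2 read 10.12 to 10.53 (median 10.44) against 10.51 to 10.84 (median 10.81), overlapping through 1 array of each group, and differed by -0.37 with an adjusted p of 0.207.

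The Esrra call lies at the edge of the threshold. Leaving out 1 array at a time kept the difference between -0.44 and -0.37, but the adjusted p ran from 0.0329 to 0.15, and the call was kept in 2 of 18 such fits, without chow replicate 4 and without HFD replicate 5. Within slides the difference was -0.45, -0.47 and -0.29. The diet and genotype comparisons share the 6 HFD arrays of iPGC1afl/fl mice, so the rise of Esrra in the first and its fall in the second are not independent of each other. Between iPGC1a-/- mice on HFD and iPGC1afl/fl mice on chow, Esrra differed by -0.06 (95% interval -0.24 to 0.11). That value follows from the other differences in the same fit and is no further test.

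The other coactivators did not pass between genotypes. Ppargc1a was higher in iPGC1a-/- mice by 0.30 at probe 1 (SE 0.16, 95% interval -0.04 to 0.63, adjusted p = 0.572) and by 0.36 at probe 2 (adjusted p = 0.495), above 0 on 3 of 3 slides at probe 1. Its SD was 0.26 in iPGC1a-/- mice and 0.07 in iPGC1afl/fl mice on HFD (n = 6 each). Ppargc1b differed by -0.16 (95% interval -0.45 to 0.13) and Pprc1 by -0.03 (95% interval -0.35 to 0.30).

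None of the downstream factors passed between genotypes. Tfam differed by -0.01 between genotypes (95% interval -0.25 to 0.23), Tfb1m by 0.10 (-0.18 to 0.37), Tfb2m by -0.14 (-0.30 to 0.02), Nrf1 by 0.01 (-0.18 to 0.20), Gabpa by -0.11 (-0.27 to 0.05) and Sirt1 by 0.05 (-0.13 to 0.22). A p that misses the threshold does not show equal levels.

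The comparison of iPGC1a-/- mice on HFD with iPGC1afl/fl mice on chow joins both factors and separates neither. Here 4 of 10 members passed, against 36.8% of all genes. Ppargc1a was higher by 0.74 (1.67-fold, adjusted p = 0.00162), Ppargc1b lower (a log2 fold change of -0.70, adjusted p = 0.000707), Pprc1 lower at probe 1 (-0.52, adjusted p = 0.0143) and Tfb2m lower (-0.25, adjusted p = 0.0143). Ppargc1a and Ppargc1b did not overlap between these groups at their brightest probes, as 16.2% of all genes did not, and both passed a fold change above 1.5, as 11.8% of genes did, whereas Pprc1 and Tfb2m overlapped. Pprc1 probe 2 was again on the other side, higher by 0.44 (adjusted p = 0.00292). This comparison shares its chow arrays with the diet comparison.

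By gene, the order of the 3 groups can now be stated, each within its own probe, since levels of different probes are not comparable. Ppargc1a ran from chow to iPGC1afl/fl HFD to iPGC1a-/- HFD, with neither neighbouring step past the threshold at probe 1. Ppargc1b ran the other way, with only the step from chow to HFD past it. Esrra was highest in iPGC1afl/fl mice on HFD, with chow and iPGC1a-/- HFD not shown to differ. Pprc1 at probe 1 was highest on chow, with the step to HFD past the threshold. Tfb2m ran from chow down to iPGC1a-/- HFD, with neither neighbouring step past the threshold but the whole span past it (-0.25). The remaining genes passed in none of the 3 comparisons at the brightest probe.

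Other genes of the pathway were read from lists of partners, machinery and targets. Of 35 partners and upstream regulators tested, 3 rose and 7 fell on HFD (28.6% called, against 24.6% of all genes, median -0.13). Ppara, the fatty acid receptor coactivated by PGC1α, rose by 1.63 (SE 0.11, adjusted p = 7.81e-09), from 11.23 to 11.69 on chow to 12.66 to 13.23 on HFD. Pparg, its adipogenic relative, fell by 0.64, Kat2a, the acetyltransferase GCN5 that acetylates PGC1α, by 0.50, and Mybbp1a, a repressor of PGC1α, by 0.49. None of the 35 passed between genotypes by limma, against 0.227% of all genes, so a count of 0 is near the background. An unadjusted limma p of 0.05 was reached by 1 of the 35, against 9.3% of all genes.

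Among 6 further sirtuins, Sirt3, the main deacetylase of the mitochondrial matrix, rose by 0.45 (adjusted p = 0.00052) and Sirt2, a mainly cytosolic deacetylase, by 0.40 on HFD. These are 33.3% of the list, against 24.6% of all genes called. None passed between genotypes by limma, against 0.227% of all genes, and 1 did without chow replicate 3. An unadjusted limma p of 0.05 was reached by 2 of 6, against 9.3% of all genes. Sirt3 read 9.40 to 9.86 (median 9.68) on chow, 10.05 to 10.21 (median 10.096) in iPGC1afl/fl mice on HFD and 9.62 to 9.94 (median 9.69) in iPGC1a-/- mice on HFD. Its genotype difference was -0.37, without overlap, at an adjusted p of 0.0849. Of 29 genes for transcription, replication and upkeep of mitochondrial DNA, 2 rose and 6 fell on HFD (27.6% called, against 24.6% of all genes), and 5 in all were called without HFD replicate 3 or HFD replicate 6. Those that rose were Slc25a33, a mitochondrial pyrimidine nucleotide carrier (0.66), and Polg2, the accessory subunit of the mitochondrial DNA polymerase (0.44). Elac2, a nuclease that trims the 3′ ends of tRNAs, fell by 0.51 and Top1mt, the mitochondrial topoisomerase, by 0.42. Of 10 mitochondrially encoded transcripts tested, ND2 and ND4L, subunits of complex I, rose by 0.32 each (20% called, against 24.6% of all genes). Both calls were lost without chow replicate 4 (0.30 and 0.31) or HFD replicate 2 (0.28 and 0.28). Both were also lost without HFD replicate 3 (0.28 and 0.26) or HFD replicate 6 (0.31 and 0.30). The ND2 call was also lost without chow replicate 1 (0.32) or 5 (0.31). No gene of the last 2 lists passed between genotypes by limma, near the 0.227% of all genes. An unadjusted limma p of 0.05 was reached by 0 of 29 and 1 of 10, against 9.3% of all genes.

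Of 42 nuclear target genes tested, 7 rose and none fell on HFD (16.7% called, median 0.04). Over all genes 24.6% were called, 10.4% higher and 14.2% lower. Pdk4, a brake on pyruvate oxidation, rose by 2.27 (adjusted p = 7.74e-06), Cat, the peroxide-removing catalase, by 0.94, Cpt1b, a carnitine palmitoyltransferase, by 0.34 and Mdh2, the mitochondrial malate dehydrogenase, by 0.32. Between genotypes the median of the 42 was -0.17 against 0.01 over all genes, and 11 lay above 0. An unadjusted p of 0.05 was reached by 21 of the 42, all lower in iPGC1a-/- mice except Cat (0.37), against 9.3% of all genes. Idh3a, the catalytic subunit of NAD-dependent isocitrate dehydrogenase, was the 1 gene of the list that passed (2.38%, against 0.227% of all genes). It read 11.34 to 11.56 (median 11.46) in iPGC1afl/fl mice on HFD and 10.78 to 11.10 (median 10.97) in iPGC1a-/- mice, without overlap. It fell by 0.51 (SE 0.07, adjusted p = 0.00225). Idh3a had risen by 0.32 on HFD (adjusted p = 0.00342), in the direction of Esrra in both comparisons, which again share the 6 HFD arrays. Cycs, the electron carrier cytochrome c, differed by -0.43 between genotypes (adjusted p = 0.263) and Atp5b, the catalytic subunit of ATP synthase, by -0.24 (adjusted p = 0.301). Neither passed. The genotype count of this list was 2 without iPGC1a-/- replicate 5, and also with the processed signal, normexp, only the groups compared or trended and robust variance.

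Of 35 genes for protein import into mitochondria, 12 fell and none rose on HFD (34.3% called, median -0.17). Over all genes 24.6% were called and 14.2% were called lower. Tomm5, a small subunit of the outer membrane translocase, fell by 0.50, the chaperonin Hspd1 by 0.49 (not called without chow replicate 4, at -0.39, or HFD replicate 2 or 3, at -0.44 and -0.43), Timm50, a receptor of the inner membrane translocase, by 0.46 and Timm9, an intermembrane space chaperone, by 0.45. The count was 7 without chow replicate 4 or HFD replicate 3, and 6 or 5 with the processed or median signal scaled to the 75th percentile. Mtx2, a subunit of the outer membrane sorting machinery, was the 1 gene of this list called between genotypes (2.86%, against 0.227% of all genes). It read 9.63 to 9.79 in iPGC1afl/fl mice on HFD and 8.92 to 9.45 in iPGC1a-/- mice, and it fell by 0.54 (SE 0.08, adjusted p = 0.00291). The genotype count of this list was 2 without chow replicate 3 or HFD replicate 5 and with normexp.

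**Figure D3:**
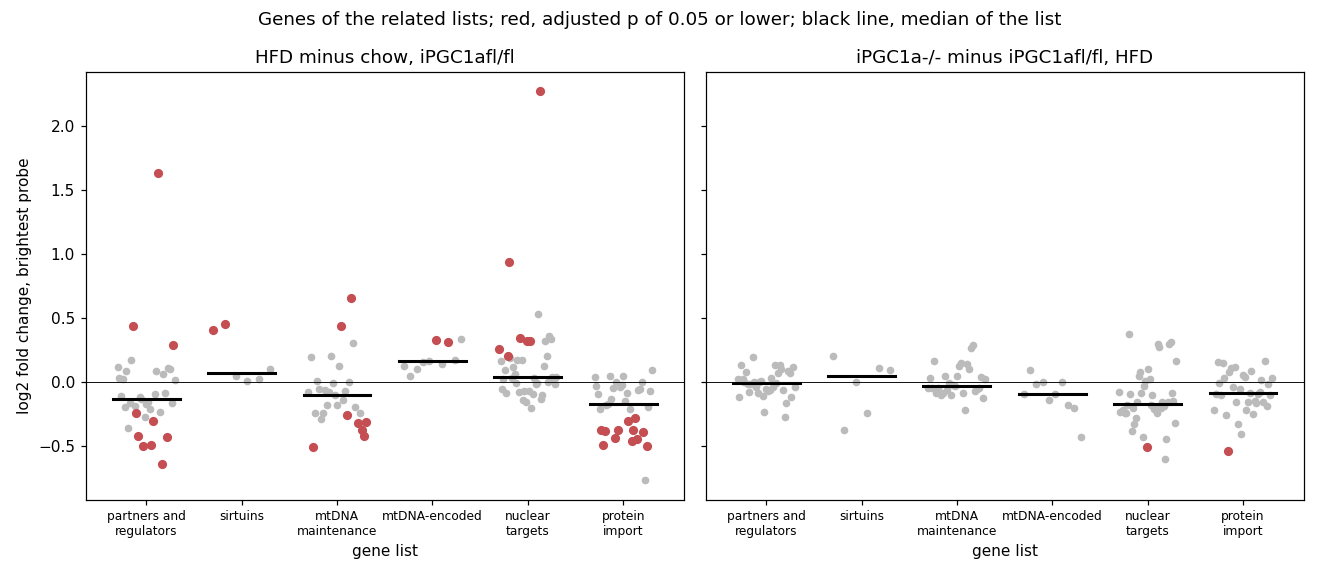
Log2 fold change at the brightest probe (vertical axis) of each gene of 6 related lists, for HFD minus chow in iPGC1afl/fl mice (left) and iPGC1a-/- minus iPGC1afl/fl on HFD (right), with red for genes that passed the threshold and a black line at the median of the list. Red points of protein import (12) all lie below 0 and those of nuclear targets (7) all above 0 on the left, and the 2 red points on the right are Idh3a and Mtx2.

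One chow array, replicate 4, stood apart in both crypt markers and members. It also had the lowest Paneth sum of all 18 arrays (373732, against 418971 or more). Its macrophage and enteroendocrine sums (22158 and 9367) were the lowest on chow. Chow replicate 4, with the highest crypt sum, had the highest Ppargc1b, Pprc1 and Tfam values at the brightest probe, and HFD arrays of iPGC1afl/fl mice had crypt sums of 8504 to 13780 against 9633 to 18356 on chow. For Ppargc1b, some arrays did not follow this order. Chow replicate 5, with the next highest crypt sum (15182), had the lowest Ppargc1b on chow (10.03). HFD replicate 6, with a low sum (9514), had the highest Ppargc1b of iPGC1afl/fl mice on HFD (10.42). In that group Pprc1 was highest in replicate 4 (8.65, sum 13780) and lowest in replicates 2 and 3 (7.91 and 7.93, sums 8725 and 8504). Tfam was lowest there in replicate 3 (9.16) but highest in replicate 5 (9.71, sum 12073). In iPGC1a-/- mice, replicate 3 had the lowest sum, Ppargc1b (9.55) and Pprc1 (7.91). Crypt sums of iPGC1a-/- arrays were 9327 to 11940. Their part in the diet differences of these genes was not tested. Without chow replicate 4 Ppargc1b kept its call, and 2 of 10 members were called in place of 3.

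**Figure D4:**
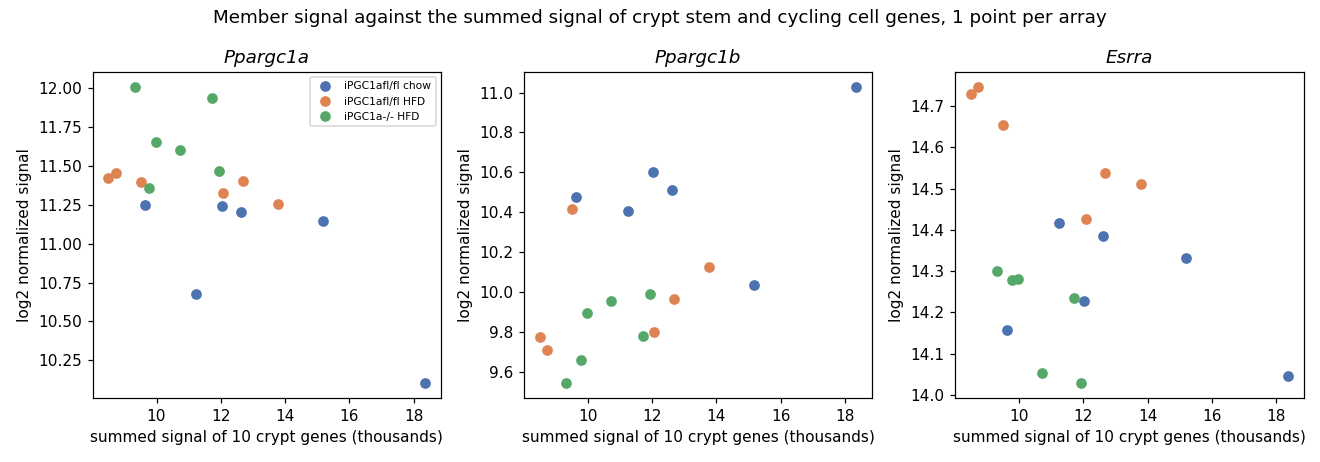
Log2 normalized signal of the brightest probe of Ppargc1a, Ppargc1b and Esrra (vertical axes) against the summed normalized signal (scaled down on the axis) of 10 genes of crypt stem and cycling cells (horizontal axes), with 1 point per array coloured by group. The chow array at the far right (18356, or replicate 4) has the lowest Ppargc1a and the highest Ppargc1b.

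Over the 18 arrays, after each group's mean was subtracted, the genes whose brightest probe was most like that of Ppargc1a were Snx20 (Pearson r = 0.89), an entry named only by a transcript identifier (0.89), Acsm5 (0.88), Gde1 (0.88) and Rab3gap2 (0.87). In chow replicate 4 and iPGC1a-/- replicate 3 Ppargc1a lay farthest from its group mean. Without these 2 arrays, the r of those 5 genes ran from 0.68 to 0.84. Over all 18 arrays the other members ran from Esrra (0.40) and Tfb2m (0.38) to Pprc1 (-0.45) and Ppargc1b (-0.51). Without those 2 arrays Tfb2m was at 0.64, Esrra at 0.07, Pprc1 at -0.04 and Ppargc1b at -0.13, so the order of the members rests on them. All points share the array scan and normalization, and the values are descriptions across arrays.

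RefSeq promoter windows of 1 length on GRCm38.p6, from before to just after each transcription start, were found for 9 of the 10 members (10 windows, 2 of them for Nrf1). Both strands were searched for letters bound by the factors of this set. The GABP letters CCGGAAGT were present in the Tfam window alone, against 3.89% of 32851 windows, and the SP1 letters GGGCGG in 6 of 10 against 35.7%. The palindromic NRF1 motif (0.971% of windows), the ERR letters TCAAGGTCA (0.423%) and the cAMP response letters TGACGTCA (1.79%) were in none, which says only that these letters are not in these windows. The Tfam stretch is shown because it holds the one match to a member's own motif. It covers chr10:71238058-71238117 of GRCm38.p6 on the minus strand, wholly before the start, with the match in capitals beginning 47 bases before it.
Tfam promoter: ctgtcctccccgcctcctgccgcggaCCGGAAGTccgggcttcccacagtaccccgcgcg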

How the data were processed

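One array was measured for each of 18 samples, 6 per group, with SurePrint G3 Mouse arrays and Agilent Feature Extraction 10.10.1.1. Per the file headers, the spot intensities deposited for each array are mean and median signals with local background, plus a background-subtracted processed signal, all on a linear scale, with coordinates on mm9. The authors also deposited a log2 table of 33095 probes, which per their methods was filtered, corrected for washing bath and labelling series and normalized with qsmooth. Its columns share 1 maximum (18.67), so its values look quantile normalized, and it served as an alternative. The washing baths and labelling series are not in the labels used here and could not be fitted.

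Here, spots of the control type or marked as outliers (from 46 up to 153 on an array) were dropped, median signals were log2 transformed, spots of a probe were averaged, and arrays were normalized with an implementation of qsmooth (window 0.05). A probe stayed if any group had it well above background on 5 or more of its 6 arrays (32726 of 56605, holding 21542 gene names). A model of the 3 groups was fitted with limma 3.58.1 in R 4.3.3. Every adjusted p of this fit, and of refits on the same probes, is limma's moderated test with Benjamini-Hochberg adjustment over the 32726 probes. Tests were two-sided, with a threshold of 0.05. Refits with another filter, the authors' values or the mean of a gene's probes were adjusted over the probes or genes tested there. A gene was read at its brightest probe. The procedure was tested on simulated data. The number of arrays limits the precision. The labels number the samples but do not say that each came from a separate mouse, so the p-values measure the spread between these samples.

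The members and gene lists were chosen with earlier results of these data known. Of each list, the called genes are named, at most 4 per comparison by the size of the log2 fold change, plus Cycs and Atp5b, and the 5 genes most like Ppargc1a. The Idh3a diet value, the probe sequences and the promoter motifs were chosen after values were seen. Alternatives were another background correction and scaling, the filter, slide and replicate blocks, variance settings, probe averaging, thresholds and leaving out each array. A placement of probes on proteins was not run.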

Additional observations from a re-analysis of the deposited data

Results flagged for a closer look

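Among 66 groups of 6 arrays over the 22 member probes, 5 had 1 array set apart from the rest by a gap beyond Dixon's critical share of the group's range. Chance flags about 1 in 20 groups, or close to this number, and none of the 5 is a probe called between diets or genotypes. All values are log2 normalized signals.

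Esrra probe 2 read 10.51 in iPGC1afl/fl HFD replicate 5, with the nearest array at 10.72. Nrf1 probe 1 read 9.47 in iPGC1a-/- HFD replicate 1, with the nearest at 9.25. Nrf1 probe 2 read 6.88 in chow replicate 3, with the nearest at 6.46. The same chow array was low for Tfb1m, at 7.501 against 8.16 for the nearest. Tfb2m probe 2 read 6.09 in chow replicate 2, with the nearest at 6.36.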

How the results depend on the processing

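Between diets, Esrra and Ppargc1b kept their direction and call under all 13 refits and all 18 fits without 1 array. Ppargc1a at probe 1 passed when scaled to the 75th percentile, on processed (0.54) or median (0.52) signal, with the replicate block (0.44) and with the mean of its probes (0.47), and it ran from 0.27 to 0.50 without 1 array. No member passed with a fold change above 1.5 (0 of 10), and 2 to 4 passed without 1 array. Pprc1 lost its call with only the groups compared (-0.49, adjusted p = 0.0522) and with the mean of its probes (-0.08). Esrra lost its genotype call in 8 of 13 refits (limma adjusted p up to 0.0984). The genotype count of members was 0 with either signal scaled to the 75th percentile, no filter, a strict filter, slide or replicate as a block, only the groups compared, a fold change above 1.5, an adjusted p of 0.01 or the mean of the probes, and it was 0 to 1 without 1 array. In the comparison of both factors, 2 members passed with a fold change above 1.5 and 2 at an adjusted p of 0.01.

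Values near 0 changed sign. Tfb1m between diets was 0.048 (processed signal), 0.047 (normexp), 0.025 (quantile), 0.014 (median signal) and 0.024 (the authors' values), and -0.15 to 0.055 without 1 array. With the processed signal Cycs between diets was 0.0033, Tfam between genotypes 0.0029 and Esrra over both factors 0.0059. Pprc1 between genotypes was 0.021 with array weights. Without 1 array the genotype differences ran from -0.087 to 0.061 for Pprc1, -0.064 to 0.046 for Tfam, -0.035 to 0.069 for Nrf1, -0.0087 to 0.084 for Sirt1, -0.14 to 0.0091 for Ppargc1b probe 2 and -0.070 to 0.048 for Pprc1 probe 2. The causes were not tested.

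The labels do not say that replicate numbers pair the arrays, and the main fit did not pair them. Same-numbered arrays correlated at -0.13 to 0.28 between diets and -0.19 to 0.33 between genotypes after group means were removed. The correlation was above 0.1 for 4 of 6 arrays between diets and 3 of 6 between genotypes. The same number was the best match for 3 and 2 arrays, so these values do not settle whether the numbers pair arrays. Counts of called genes between diets ran from 5 to 14 for protein import and 5 to 11 for upkeep of mitochondrial DNA under the refits. Signal over background limits Pprc1 probe 3, which was not well above background on any iPGC1a-/- array.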
